A study of Homo sapiens with 4 samples.

Results

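The replication-dependent histone genes were examined in embryoid bodies of BG01V, an established line of human embryonic stem cells whose karyotype is abnormal. The members are the genes whose array symbol, as written or updated, belongs to the clustered histone families named HIST1 to HIST4, now H1-1 to H1-5, H2AC, H2BC, H3C and H4C, with H1-6, H3-4 and the transcribed pseudogene H2BP1 matched by their older symbols. Another 5 H2B genes kept their older symbols. They numbered 61 of 18640 named genes, with 6 of type H1, 14 of H2A, 19 of H2B (the pseudogene among them), 11 of H3 and 11 of H4, and 52 of the 61 came from the HIST1 family. No measured difference is part of this rule, although the members were chosen with earlier results of these data known. Embryoid bodies are aggregates in which stem cells start to differentiate. The DMSO group received the vehicle, and the TBBD group received 10 µM TBBD for 48 h, by the general protocol between day 2 and day 4 of aggregate formation. TBBD is given in the series title as a compound that inhibits H3R17 methylation, the methylation of arginine 17 of the H3 protein. Each group held 2 arrays, called replicate 1 and replicate 2 as the labels number them, and 2 values of a group are given below in that order. The labels give 1 cell line for all 4 arrays and name no separate cultures, so the p-values below reflect just the spread among these 4 samples, which may be technical.

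Histones H2A, H2B, H3 and H4 form the protein core around which DNA is wound, and the linker histone H1 binds the DNA between cores. The genes studied here lie in clusters, lack introns for the most part, and are transcribed mainly during S phase, when newly copied DNA needs new histones. Their mRNAs end in a stem-loop bound by SLBP in place of a poly(A) tail. Transcription is driven by NPAT, a target of cyclin E and CDK2 kept at the histone clusters. Stem cells of the early embryo spend much of their cycle in S phase, so these mRNAs are abundant there, and the H3 proteins made from them carry the arginine that CARM1 methylates.

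The values below are log2 signals from RMA, averaged over the probesets of a gene (a probeset is a set of a few probes from one exon). Histone genes are short, so the 61 members rested on 186 probesets. Of the members, 3 had 1 probeset, 25 had 2 and 33 had at least 3, against a median of 9 for all genes. Copies within a type are nearly identical, so a probeset may also take up RNA of other copies, and the value of a single member is uncertain. The brightest member of a type is the one with the highest mean over probesets and arrays, which dim probesets lower. H3C6, for example, had probesets at 12.88 and 6.18 on DMSO 1. The labels do not say whether the labelling captured RNA without a poly(A) tail. In such bulk RNA, fewer cells making a transcript and less of it per cell cannot be told apart. Median signals over all genes lay between 6.32 and 6.36 on the 4 arrays. Olfactory receptor genes, which serve in the nose and stand here for background, had a median signal of 5.40 and a 90th percentile of 5.60, and 55 members lay above that percentile on the mean of the 4 arrays. Markers of undifferentiated stem cells were present, with a mean signal over 11 measured genes between 7.50 and 8.07 on the 4 arrays. Those of mesenchyme, at 8.10 to 9.70 over 11 genes, and of visceral endoderm, at 5.61 to 7.21 over 8 genes, had lower mean signals on both replicate 1 arrays than on both replicate 2 arrays. The mean signals were at most 6.18 over 9 neural, 7.80 to 8.15 over 7 trophoblast and 6.17 to 7.24 over 6 blood or endothelial markers.

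Promoters set the H4 genes apart from the other types. Promoter windows of 250 bases before to 50 after the start, from RefSeq on GRCh38.p14, were found by symbol for 50 members. All 41 windows of H1, H2A, H2B and H3 members held CCAAT on either strand, against 3 of 9 H4 windows and 35.7% of all 27305 promoters. The letters GGTCCG, which lie in the conserved element of H4 promoters, were in 8 of 9 H4 windows, 3 of 41 others and 11.2% of all promoters. The octamer ATTTGCAT, the element of H2B promoters bound by OCT1, was in 9 of 13 H2B and 11 of 13 H2A windows, 1 of 9 H3 and no H1 or H4 window, against 1.8% of all promoters. TATAAA was in 33 of the 50 windows and 12% of all. These matches describe letters and not binding. Both strands were searched, and motifs may overlap. Nor are all windows separate, since 7 pairs of H2A and H2B genes share the bases between their starts, which count for each gene. H2AC20 and H2BC21, such a pair, are among the 3 others with GGTCCG. The bases before the start are printed 5′ to 3′ for the 2 brightest H4 genes, both past 1.2-fold between TBBD and DMSO in replicate 2, for the H3 and H2B genes that differed most in replicate 1, and for the H2B gene whose window is shared with H2AC20. Capitals mark the 4 motifs on either strand. H4C5 lies at chr6:26204360-26204609 on the plus strand and H4C4 at chr6:26189113-26189362 on the minus strand. H3C10 lies at chr6:27809801-27810050 and H2BC14 at chr6:27814778-27815021, both on the plus strand, and H2BC21 at chr1:149886683-149886917 on the minus strand. The last 2 windows run back to the start of the opposite gene, H2AC14 or H2AC20.
H4C5: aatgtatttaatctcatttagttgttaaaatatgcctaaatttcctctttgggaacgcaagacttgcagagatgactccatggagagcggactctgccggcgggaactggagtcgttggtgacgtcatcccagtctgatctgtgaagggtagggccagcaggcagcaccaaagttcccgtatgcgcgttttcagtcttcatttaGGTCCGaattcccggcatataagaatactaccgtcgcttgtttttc
H4C4: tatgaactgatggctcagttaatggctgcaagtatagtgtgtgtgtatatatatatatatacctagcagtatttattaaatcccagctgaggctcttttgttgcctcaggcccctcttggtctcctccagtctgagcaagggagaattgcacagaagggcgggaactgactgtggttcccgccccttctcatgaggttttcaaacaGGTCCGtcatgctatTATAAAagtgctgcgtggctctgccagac
H3C10: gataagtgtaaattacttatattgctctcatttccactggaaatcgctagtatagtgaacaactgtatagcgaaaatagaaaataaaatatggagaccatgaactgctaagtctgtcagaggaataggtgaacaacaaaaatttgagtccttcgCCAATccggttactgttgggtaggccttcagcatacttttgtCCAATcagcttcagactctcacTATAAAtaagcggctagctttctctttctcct
H2BC14: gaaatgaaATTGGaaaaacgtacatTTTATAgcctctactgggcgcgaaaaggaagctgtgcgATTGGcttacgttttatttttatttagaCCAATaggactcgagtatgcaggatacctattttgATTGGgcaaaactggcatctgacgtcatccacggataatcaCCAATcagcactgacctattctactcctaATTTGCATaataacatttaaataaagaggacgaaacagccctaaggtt
H2BC21: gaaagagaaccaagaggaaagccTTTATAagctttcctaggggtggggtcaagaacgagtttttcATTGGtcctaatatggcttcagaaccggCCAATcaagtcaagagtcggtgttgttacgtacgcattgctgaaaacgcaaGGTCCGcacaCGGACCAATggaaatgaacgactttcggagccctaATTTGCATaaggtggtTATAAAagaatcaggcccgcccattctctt

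Over both replicates, none of the histone genes was called different between TBBD and DMSO. In limma, with Benjamini-Hochberg adjustment over all 18640 genes, 0 of the 61 members had an adjusted p under 0.05, and so did 0% of all genes. At an unadjusted p under 0.05 there were 0 members, against 0.746% of all genes. Some fits with 1 array left out gave other unadjusted counts, whose share over all genes is not given here. The median log2 difference over the members was -0.012, against -0.0035 over all genes. By type the medians were -0.15 for H1, 0.0026 for H2A, -0.0055 for H2B, -0.026 for H3 and 0.089 for H4. With 1 array left out in turn they ranged from -0.25 to -0.031 for H1, -0.13 to 0.013 for H2A, -0.15 to 0.053 for H2B, -0.12 to 0.046 for H3 and -0.15 to 0.27 for H4, so the H1 median alone kept its sign. With probesets added that carry several symbols of 1 type, the H4 median was 0.0096, that of H3 -0.11 and that of H2B -0.059. Those of H1 and H2A were then -0.15 and 0.0053. The median member's unadjusted 95% confidence interval reached 0.39 to either side of its difference. For a single gene, an exact permutation of 2 arrays against 2 cannot go below p = 0.333.

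The 2 same-number comparisons ran in opposite directions for most of these genes. In replicate 1, TBBD minus DMSO had a median of -0.15 over the members and 49 of 61 were below 0, against a median of -0.021 over all genes, 54.7% of which were below 0. The other 12 were above 0, against 45.2% of all genes. In replicate 2 the median was 0.10 and 47 of 61 were above 0, against 0.012 and 53.2% of all genes. Below 0 in replicate 1 and above 0 in replicate 2 were 38 members, where 31.7% of all genes were. The sign was the same in both replicates for 20 members, against 44.5% of all genes. Past 1.2-fold, 22 members lay lower with TBBD in replicate 1 and 1 lay higher, against 10.6% and 7.23% of all genes. In replicate 2, 0 lay lower and 11 higher past that fold, against 5.5% and 7.77% of all genes. With 1 array against 1 array there is no test of either comparison, and whether the 2 comparisons differ beyond array error was not tested.

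**Figure D1:**
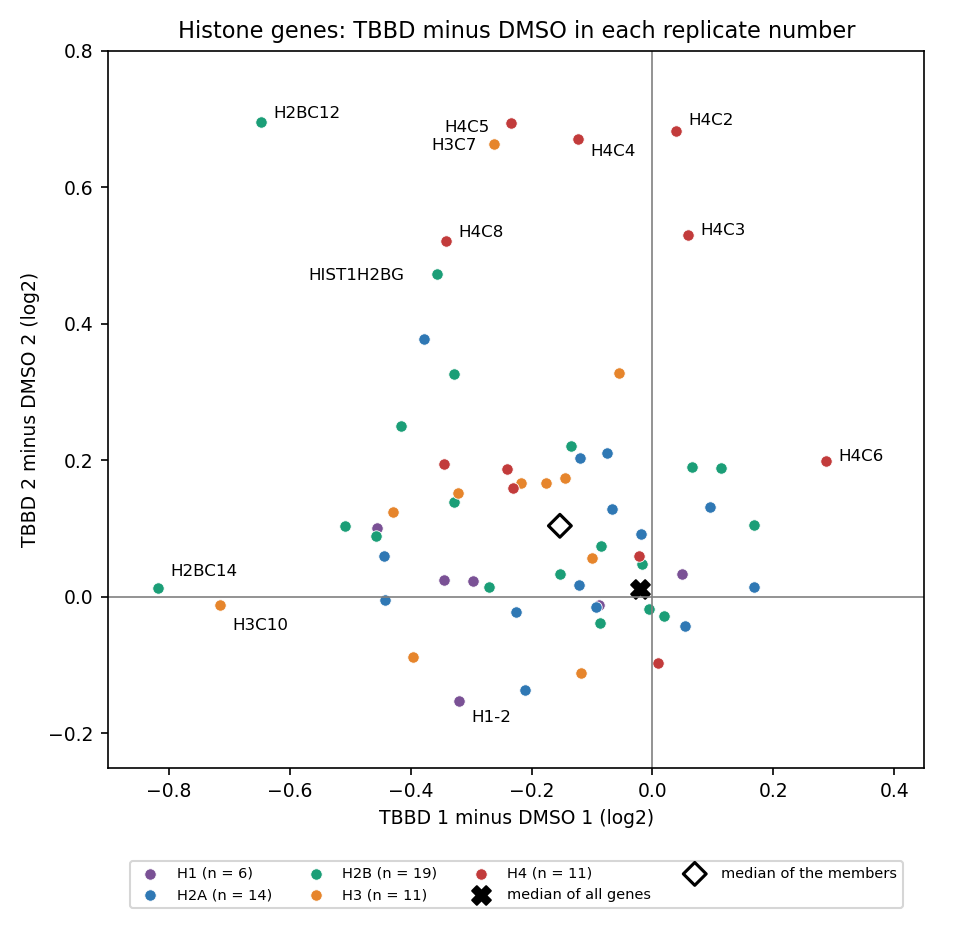
Each of 61 histone genes by its log2 difference TBBD 1 minus DMSO 1 (horizontal) and TBBD 2 minus DMSO 2 (vertical), coloured by histone type. The median of the members (open diamond) lies at -0.15 and 0.10, that of all genes (cross) at -0.021 and 0.012, and 38 members fall in the upper left of the plot.

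The array that held the highest signal differed by type. DMSO 1 was the highest of the 4 arrays for 35 of 61 members, against 29.2% of all genes, and TBBD 2 for 19, against 28.9%. TBBD 1 was the highest for 6 and DMSO 2 for 1, against 22.5% and 19.4% of all genes. Among H1, H2A, H2B and H3 members DMSO 1 was the highest for 33 of 50. Among H4 members TBBD 2 was the highest for 8 of 11. The mean signal over the members was 7.56 and 7.38 with DMSO and 7.37 and 7.54 with TBBD. DMSO 1 and TBBD 2 were therefore the high arrays, and the treatments did not separate. The members' single probesets showed the same directions, with 137 of 186 lower with TBBD in replicate 1 and 123 of 186 higher in replicate 2. Of all probesets with 1 symbol, 50.6% and 50.5% were. Probesets with several symbols are described below.

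**Figure D2:**
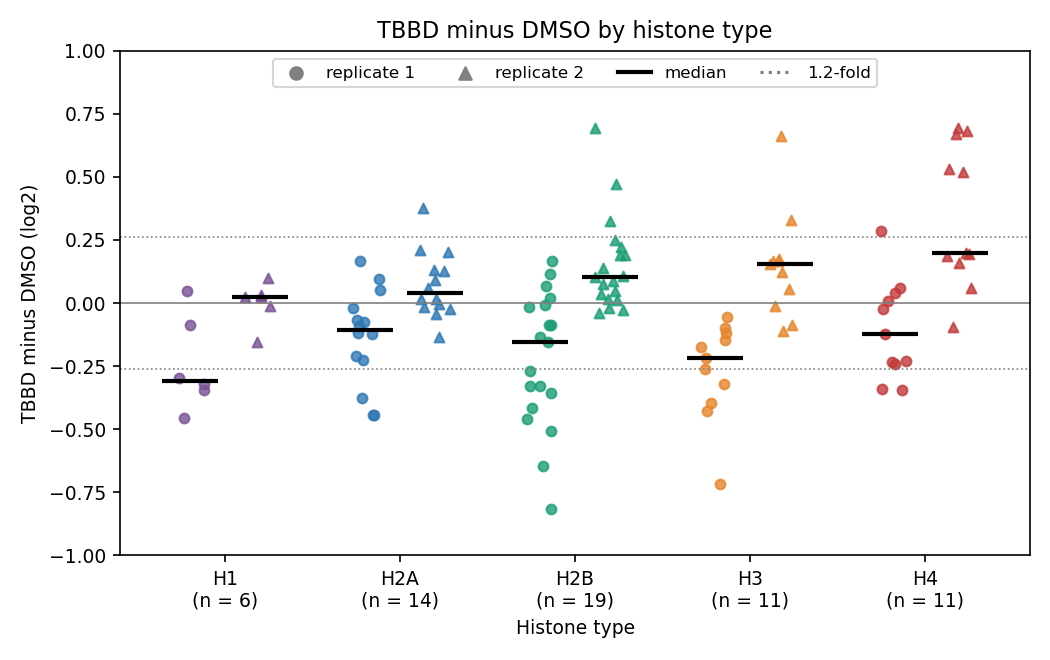
Log2 difference TBBD minus DMSO of each member by histone type, in replicate 1 (circles) and replicate 2 (triangles), with black bars at the type's median and dotted lines at 1.2-fold. Every type's median lies below 0 in replicate 1, from -0.31 for H1 to -0.11 for H2A, and above 0 in replicate 2, from 0.024 for H1 to 0.20 for H4.

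H3 genes, which encode the substrate of arginine 17 methylation, all lay lower with TBBD in replicate 1. The median of the 11 was -0.22, with values from -0.72 to -0.056, and in replicate 2 it was 0.15, with 8 of 11 above 0. H3C10, the brightest, had signals of 10.43 and 9.83 with DMSO and 9.71 and 9.82 with TBBD. DMSO 1 stood apart from the other 3 arrays, which lay close together, and the groups did not overlap. Over both replicates H3C10 differed by -0.36 ± 0.22 (SE), which limma did not call (adjusted p = 1), and its 2 probesets held identical values. Both TBBD arrays were below both DMSO arrays for 6 of the 61 members, against 10.4% of all genes, and above them for 4, against 10.5%. H3C8, another of the 6, differed by -0.40 in replicate 1 and -0.088 in replicate 2. H3C3 was the most even, at -0.12 and -0.11.

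H3C7 was the H3 gene with the highest value in replicate 2, at 0.66. Its signals were 7.25 and 6.82 with DMSO and 6.98 and 7.48 with TBBD, so the treatments overlapped and TBBD 2 was the highest. Its 5 probesets differed between TBBD 2 and DMSO 2 by 0.066 to 1.45, so the size depended on the probeset. H3C1 was the other H3 gene past 1.2-fold in replicate 2, at 0.33. H3C2 and H3C12 marked the ends of the H3 genes between replicate numbers, at 0.21 and -0.25 for number 2 minus number 1.

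H4 genes had the highest median of the 5 types in replicate 2. TBBD 2 lay above DMSO 2 for 10 of 11, with a median of 0.20, and 5 lay higher past 1.2-fold. In replicate 1 the median was -0.12, with 7 of 11 below 0. H4C5, the brightest H4 gene, whose promoter holds GGTCCG but neither CCAAT nor TATAAA, had signals of 9.05 and 9.33 with DMSO and 8.82 and 10.02 with TBBD. TBBD 1 was the lowest and TBBD 2 the highest, so the DMSO arrays lay between the TBBD arrays. H4C4 had 9.08, 9.18, 8.95 and 9.85 in the same order, and again the TBBD arrays lay on either side of both DMSO arrays. H4C2, at 7.25, 7.57, 7.29 and 8.25, was highest on TBBD 2, and its treatments overlapped.

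The other 2 of these 5 H4 genes were H4C3 and H4C8. H4C3 had 8.31 and 8.33 with DMSO and 8.37 and 8.86 with TBBD, and its groups did not overlap on this mean over probesets. In replicate 1 its 3 probesets stood at 0.35, 0.10 and -0.28, the first near background with a signal of 4.97 on DMSO 1. The difference of H4C3 over both replicates was 0.29 ± 0.19 (SE), and that of H4C2 was 0.36 ± 0.34. Limma called neither (adjusted p = 1 for each), and without TBBD replicate 2 H4C2 stood at -0.12. H4C8 stood at -0.34 in replicate 1 and 0.52 in replicate 2. The probesets of H4C4 and of H4C5 disagreed in size. In replicate 2 those of H4C4 stood at 0.080 and 1.26, those of H4C5 at 0.31 and 1.07, and those of H4C8 at 0.51 and 0.54. H4C6 was the member with the highest value in replicate 1, at 0.29, and stood at 0.20 in replicate 2, with signals of 6.49 and 6.64 with DMSO and 6.78 and 6.83 with TBBD. Its difference of 0.24 ± 0.12 (SE) had the smallest unadjusted p of any member, 0.0975 in limma. The 3 probesets of H4C6 stood at 0.012, 0.32 and 0.53 in replicate 1. In replicate 2 they stood at 0.20, 0.52 and -0.12, so the last, at 6.08 on DMSO 1, changed sign.

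**Figure D3:**
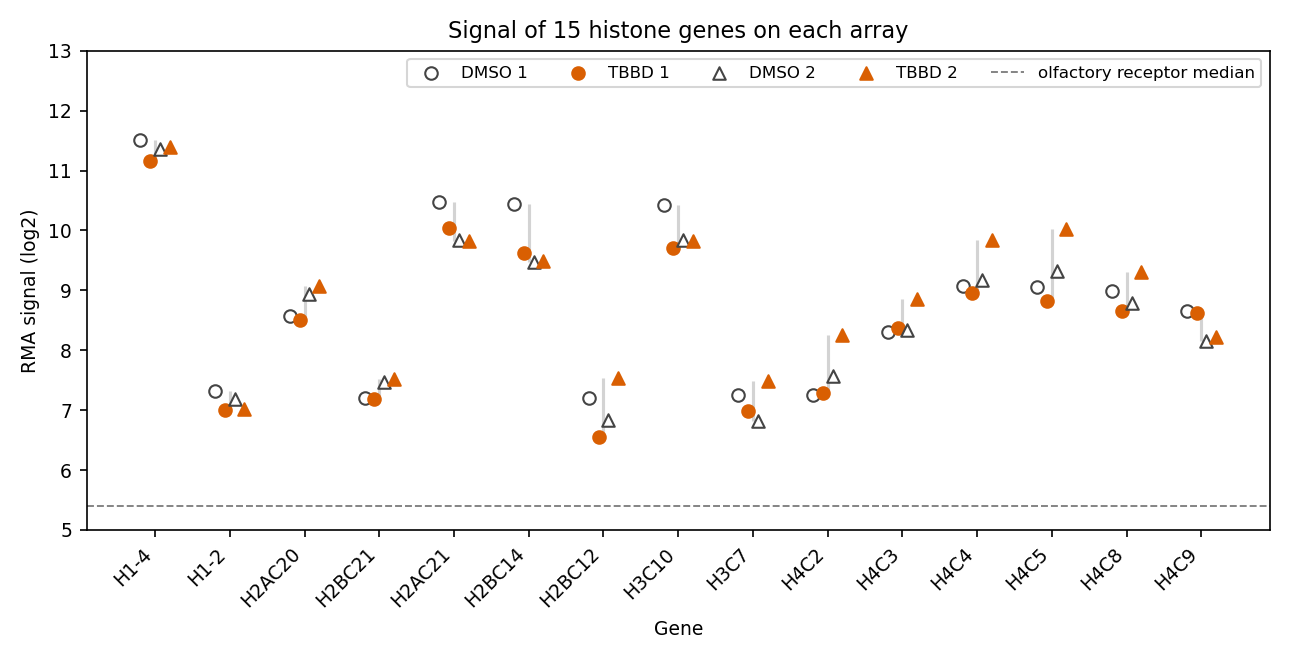
RMA signal (log2) of 15 histone genes on DMSO 1, TBBD 1, DMSO 2 and TBBD 2, with the olfactory receptor median of 5.40 as a dashed line. H2BC14, H3C10 and H2AC21 are highest on DMSO 1, the H4 genes H4C2, H4C3, H4C4, H4C5 and H4C8 on TBBD 2, and H2AC20 and H2BC21 are higher on both replicate 2 arrays.

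H2B genes held the largest single difference of replicate 1. H2BC14, the brightest H2B gene, had signals of 10.44 and 9.48 with DMSO and 9.62 and 9.49 with TBBD. As for H3C10, DMSO 1 stood above the other 3 arrays. TBBD 1 minus DMSO 1 was -0.82, and its 3 probesets lay between -0.97 and -0.70. In replicate 2 the difference was 0.013. Over both it was -0.40 ± 0.33 (SE), not called by limma (adjusted p = 1). Over the 19 H2B members, 15 lay lower in replicate 1 with a median of -0.15, and 16 lay higher in replicate 2 with a median of 0.10. H2BC12 turned furthest, with signals of 7.20 and 6.84 with DMSO and 6.55 and 7.53 with TBBD, which is -0.65 in replicate 1 and 0.70 in replicate 2. Its treatments overlapped, and its 2 probesets, at 8.06 and 5.62 on DMSO 2, stood at 0.42 and 0.97 in replicate 2. HIST1H2BG stood at -0.36 and 0.47 and H2BC9 at -0.33 and 0.33. In replicate 2 the 5 probesets of HIST1H2BG lay between 0 and 1.54, the highest on a probeset near background, at 5.23 on DMSO 2. The 2 of H2BC9, at 11.00 and 7.07 on DMSO 2, stood at -0.023 and 0.67, so these sizes depended on the probeset. H2BC5 stood at -0.086 and -0.038, and H2BC26 lay higher in both, at 0.11 and 0.19, near the olfactory receptor level with a mean signal of 5.69.

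In replicate 1, H2A genes had the smallest median difference in size of the 5 types. Of 14, 11 lay lower in replicate 1 with a median of -0.11, and 9 lay higher in replicate 2 with a median of 0.039. These medians rest on means over probesets, some of them near background. The probesets of H2AC16 lay between -0.94 and 0.028 in replicate 1, and those of H2AC8 between -0.51 and 0.33. H2AC21, the brightest, had 10.48 and 9.83 with DMSO and 10.04 and 9.83 with TBBD, so that DMSO 1 was again the highest. Its difference over both replicates was -0.22 ± 0.24 (SE), which became 0.10 without DMSO replicate 1. H2AC16 was the H2A gene past 1.2-fold in both replicates, at -0.38 and 0.38. H2AC7 stood at 0.096 and 0.13, with a mean signal of 5.86.

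Neighbouring H2A and H2B genes that share a promoter did not always have like values. RefSeq starts placed 7 member pairs head to head with 214 to 247 bases between their starts. Both partners had the same sign in 5 of 7 pairs in replicate 1 and in 4 of 7 in replicate 2. For comparison, 49 of 61 members lay below 0 in replicate 1 and 47 of 61 above 0 in replicate 2. The pairs with unlike signs in replicate 1 were H2AC25 with H2BC26 and H2AC1 with H2BC1. Their mean signals lay between 5.43 and 5.74, near the olfactory receptor level. H2AC14 stood at -0.019 in replicate 1 while its partner H2BC14, across the window printed above, stood at -0.82. The 2 probesets of H2AC14, at 6.01 and 10.06 on DMSO 1, stood at 0.11 and -0.15. The 3 of H2BC14 lay between -0.97 and -0.70. H2BC13 and H2AC13 stood at -0.42 and -0.23, and H2BC17 and H2AC17 at -0.33 and -0.21.

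Linker histone genes had the lowest median in replicate 1, at -0.31 over 6 members, and 0.024 in replicate 2. H1-4, the brightest of all members, had signals of 11.51 and 11.37 with DMSO and 11.16 and 11.39 with TBBD. TBBD 1 was the lowest array, and the other 3 lay close together. H1-2, a linker histone also made outside S phase, had 7.31, 7.18, 6.99 and 7.03 in the same order, and its TBBD arrays lay below its DMSO arrays. Its difference of -0.24 ± 0.12 (SE), with a 95% confidence interval from -0.54 to 0.066, was not called by limma (adjusted p = 1). H1-5 stood at -0.46 and 0.10, and H1-3 at -0.30 and 0.023. The testis genes H1-6, H2AC1, H2BC1 and H3-4 had mean signals between 5.43 and 5.68, near the olfactory receptor median, and their differences lay between -0.15 and 0.17 in either replicate.

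The lower values in replicate 1 were found mainly among members with a brighter mean signal. Of the 10 members with a mean signal of at least 9, all 10 lay lower in replicate 1, with a median of -0.38, against -0.052 over the 674 genes of that level. Of the 11 members below a signal of 6, 5 lay lower, with a median of 0.019, against -0.016 over all genes of that level. Across the 61 members, which share the 4 arrays and, in part, sequence, level and the replicate 1 difference had a Spearman correlation of -0.52, against -0.039 across all genes. In replicate 2 the correlation was 0.11, and the medians lay between 0.074 and 0.13 in all 5 ranges of level. The 6 members at or below the olfactory receptor 90th percentile had medians of 0.034 in replicate 1 and 0.024 in replicate 2. Signal and difference are both means over probesets, so averaging a bright probeset with dim ones may shrink both. H2AC8, at a mean signal of 7.23 and -0.12 in replicate 1, held -0.41 and -0.51 on probesets at 10.99 and 9.64 on DMSO 1. Its other probesets, at 5.67 to 6.27, stood between -0.17 and 0.33. The part of this averaging in the correlation was not tested.

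**Figure D4:**
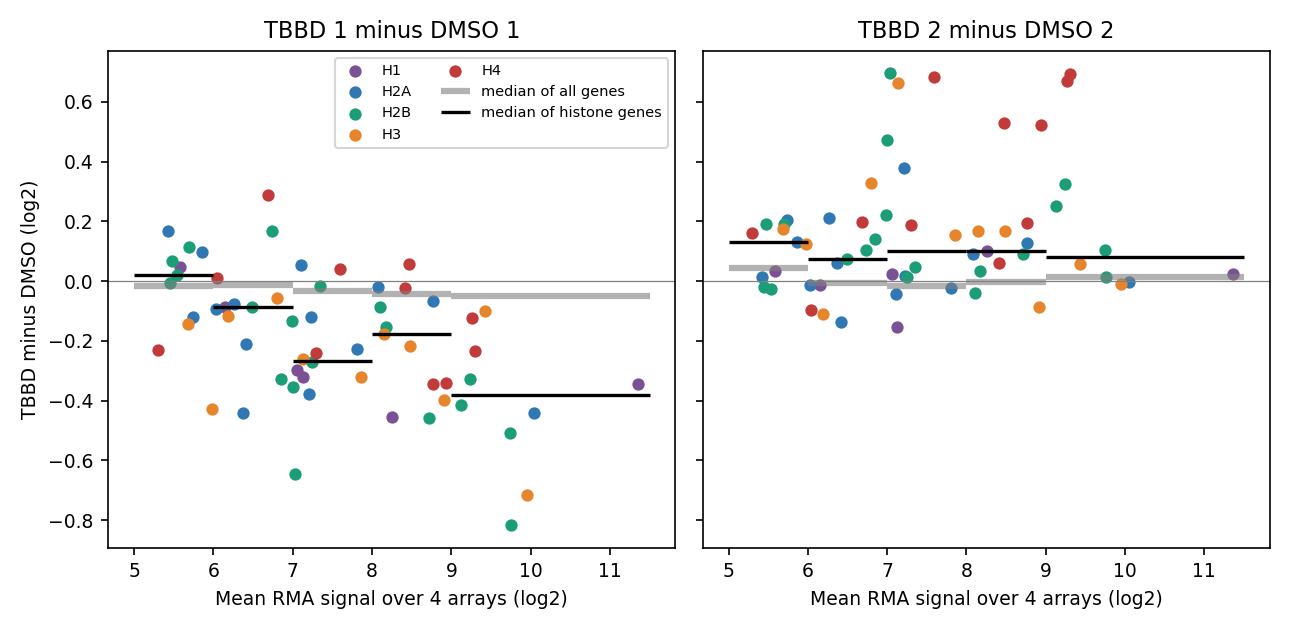
TBBD minus DMSO (log2) of each member against its mean RMA signal over the 4 arrays (log2), for replicate 1 (left) and replicate 2 (right), with medians over ranges of signal for histone genes (black) and all genes (grey). On the left the members' median goes from 0.019 below a signal of 6 to -0.38 at 9 and above, and on the right it stays between 0.074 and 0.13. Signal and difference are both means over the probesets of a member.

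Probesets that carry several symbols were left out of the gene values but cover further histone copies, such as HIST2H3A, HIST2H3C and HIST2H3D. They gave 32 distinct sets of values, of which 24 carried members of 1 type alone. Among the H3 sets, a pair differed visibly on TBBD 1 alone, at 10.893 and 10.895, and was counted as separate probesets. TBBD lay below DMSO in replicate 1 for 26 of the 32, with a median of -0.31, against 50.6% of all probesets with 1 symbol. In replicate 2 it lay above for 16 of 32, with a median of 0.0076, against 50.5% of all probesets with 1 symbol. The shared probesets as a set therefore did not show the higher replicate 2 values of the members. By type the replicate 2 medians were -0.10 for 6 H3, -0.12 for 4 H2B, 0.21 for 5 H2A and 0.017 for 9 H4 probesets. In replicate 1 all 15 shared probesets of H2A, H2B and H3 lay lower, while 4 of 9 of H4 did, with a median of 0.088. Those of H3 and H2B lay higher in replicate 2 for 1 of 6 and 1 of 4.

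Between the replicate numbers, 2 of 61 members passed limma's test, where 5.37% of all genes did. H2AC20, from the HIST2 cluster, was higher on the number 2 arrays, where 3.35% of all genes passed as higher. Its signals were 8.57 on DMSO 1, 8.50 on TBBD 1, 8.94 on DMSO 2 and 9.07 on TBBD 2. Both number 2 arrays lay above both number 1 arrays, and the difference of 0.47 ± 0.10 (SE) had an adjusted p of 0.0456 in limma. H4C9, on 1 probeset, was lower, where 2.02% of all genes passed as lower, with 8.65 and 8.63 on the number 1 arrays and 8.16 and 8.22 on the number 2 arrays. Its difference was -0.45 ± 0.097 (SE), with an adjusted p of 0.0452. Both lay close to the threshold, and the call ended in 8 of 11 alternatives for H2AC20 and in 7 of 10 for H4C9, among them each array left out in turn.

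H2BC21, which shares its promoter with H2AC20, had 7.20 and 7.18 on the number 1 arrays and 7.48 and 7.52 on the number 2 arrays. Its difference of 0.31 ± 0.097 (SE) did not pass (adjusted p = 0.126 in limma), although the numbers did not overlap. Number 2 lay above number 1 without overlap for 10 members, against 25.1% of all genes, and below it for 17, against 25.9%. At an unadjusted p under 0.05 there were 11 members, against 21% of all genes. H4C5 had the largest value of any member, at 0.74 ± 0.21 (adjusted p = 0.102), and H2BC14 the lowest, at -0.55 ± 0.23 (adjusted p = 0.238), in the same limma fit. Without TBBD replicate 1 H2BC14 stood at -0.96 and H2AC21 at -0.65, and without DMSO replicate 2 H4C5 stood at 1.08, and each then passed. Without DMSO replicate 1 H2BC14 stood at -0.14 and H2AC21 at -0.21, and without TBBD replicate 2 H4C5 stood at 0.39, and none of these passed (adjusted p = 0.594, 0.416 and 0.324 in limma). H1-1 stood at -0.31 ± 0.099 (adjusted p = 0.124). H2BC12 stood at 0.31 and H1-3 at 0.13, and neither kept its sign without TBBD replicate 1, where H2BC12 stood at -0.0097 and H1-3 at -0.020, nor H2BC12 without TBBD replicate 2, at -0.034. The median over the members was -0.025, against -0.0024 over all genes, and by type H4 had a median of 0.14 and the other types had medians below 0. Single arrays decided these signs. Without TBBD replicate 2 the H4 median was -0.011, and without DMSO replicate 1 the medians were 0.10 for H1, 0.072 for H2A, 0.0064 for H2B and 0.095 for H3. Without DMSO replicate 2 that of H2A was 0.0023.

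The numbers stood apart in opposite ways within the treatments. DMSO 2 minus DMSO 1 was below 0 for 48 of 61 members, with a median of -0.17, against 54.2% of all genes. TBBD 2 minus TBBD 1 was above 0 for 40, with a median of 0.12, against 53.1% of all genes. These comparisons share the DMSO 1 and TBBD 2 arrays with the same-number comparisons and are no separate support for them. In the comparison of numbers, limma called 9 of 11 mesenchyme and 6 of 8 visceral endoderm markers higher with number 2, at medians of 1.61 and 1.63, where 3.35% of all genes passed as higher. It called 4 of 6 blood or endothelial markers higher, 2 of 7 trophoblast markers higher and 1 lower, and 1 of 9 neural markers higher. Of 11 stem cell markers 4 were called lower, where 2.02% of all genes were, among them POU5F1 at -0.84 ± 0.18 (adjusted p = 0.0458). SOX2, named after its value was seen, was called higher, at 1.29 ± 0.20 (adjusted p = 0.0151 in limma). Their part in the histone values was not tested.

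Genes for histone variants lay lower with TBBD in replicate 1 and higher in replicate 2, as most members did. Limma called 0 genes of the lists for variants, histone mRNA, chaperones, S phase, G2 and mitosis, or arginine 17 methylation for TBBD against DMSO. Of all genes 0% were called. On these lists 1 gene, a chaperone, had an unadjusted p under 0.05 in limma, against 0.746% of all genes. Of 15 measured genes for variants, most of which are also made outside S phase, 12 lay lower in replicate 1 with a median of -0.17. In replicate 2, 12 lay higher with a median of 0.15. Of all genes, 54.7% lay lower in replicate 1 and 53.2% higher in replicate 2. H2AZ1, a variant at gene starts, had 9.52 and 8.87 with DMSO and 8.88 and 9.09 with TBBD. DMSO 1 was the highest array, as for H2BC14 and H3C10. In replicate 1 and replicate 2, H2AZ2 stood at -0.22 and 0.17, and H2AX, the variant phosphorylated at DNA breaks, at -0.23 and 0.017. H3-3B, which encodes the replacement histone H3.3, stood at -0.17 and -0.16, the linker variant H1-10 at 0.24 and 0.23, and the centromere histone CENPA at 0.19 and -0.22.

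Genes that make and process histone mRNA had smaller medians. Of 27, 21 lay lower in replicate 1 with a median of -0.083, against 54.7% of all genes. In replicate 2, 14 lay higher with a median of 0.0085, against 53.2% of all genes. SLBP, which is also on the S phase list, stood at -0.076 and 0.20, and NPAT at 0.071 and 0.018. Of 24 histone chaperones, 20 lay lower in replicate 1 with a median of -0.18. In replicate 2, 11 lay higher with a median of -0.0056, against the same shares of all genes. ASF1B stood at -0.29 and -0.053, and CHAF1A and CHAF1B, of the complex that places H3 and H4 on new DNA, at -0.23 and 0.025 and at -0.26 and -0.040.

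Most genes of S phase also had lower values in replicate 1. Of 37 measured, 31 lay below DMSO, at a median of -0.22, against 54.7% of all genes. The list's mean signals were 7.61 and 7.31 with DMSO and 7.42 and 7.35 with TBBD. DMSO 1 was the highest of the 4 arrays for 30 of the 37, against 29.2% of all genes. In replicate 2, 21 lay higher, with a median of 0.062 and none past 1.2-fold, against 53.2% and 7.77% of all genes. PCNA, the clamp of the DNA polymerases, stood at -0.23 and 0.26, and CCNE2, a cyclin E, at -0.25 and 0.16. Of 20 genes of G2 and mitosis, 17 lay lower in replicate 1 and 3 higher in replicate 2, with medians of -0.16 and -0.093. The shares of all genes, 54.7% lower in replicate 1 and 53.2% higher in replicate 2, apply here and to the lists below. The mesendoderm markers lay lower in replicate 1 for 9 of 10, with a mean signal of 7.21 on DMSO 1 against 6.36 to 6.49 on the others. The stem cell markers had medians of -0.22 in replicate 1 and -0.34 in replicate 2. Past 1.2-fold, 5 and 6 of 11 lay lower, against 10.6% and 5.5% of all genes. The trophoblast markers, at 0.54 and -0.12, had signs opposite to those of the histone medians. Of 7, 5 lay higher past 1.2-fold in replicate 1, against 7.23% of all genes. The part of cycling and of cell type in the histone values was not tested. Of 11 genes around arginine 17 methylation, 8 lay lower in replicate 1 with a median of -0.050 and 7 higher in replicate 2 with a median of 0.020, and CARM1 stood at -0.13 and -0.23.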

How the data were processed

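The deposited table held log2 values, 1 per probeset and array of 4 Affymetrix Human Gene 1.0 ST arrays. Per the submitters' processing notes the authors used RMA. No version of it was given in the sources used here, and the log2 scale was read from the deposited values. Of 247312 probesets, 277 held a placeholder and were left out, and 219181 carried 1 gene symbol. Symbols were updated through RefSeq names, 56 of the 61 members were updated, and 5 H2B symbols that matched no single current gene were kept. Probesets were averaged per gene. limma 3.58.1 in R 4.3.3 compared TBBD with DMSO, with the group as the only term, and number 2 with number 1, with the number as the only term, both two-sided over 18640 genes. Calls had a Benjamini-Hochberg adjusted p under 0.05. Within a number, 1.2-fold marked size without a test. The members, lists and tests were chosen with earlier results of these data known. Members named with values were, per type, the brightest, the extremes of both comparisons and the testis genes, and others were chosen after their values were seen, as were the promoters printed. Not every gene of the naming rule is reported here. The fits were tested on simulated arrays. Alternatives were quantile normalization, centring, the median over probesets, filters, an intensity trend, a second term, shared probesets, fewer members and each array left out. Python 3.11.15 with pandas 2.3.3 and matplotlib 3.10.9 made the summaries and plots.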

Additional observations from a re-analysis of the deposited data

How the results depend on the processing

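The count of 0 members called for TBBD against DMSO held in every alternative run. With the replicate number as a block (replicate block) 0 members passed, 0 had an unadjusted p under 0.05 and the median stayed at -0.012. The labels give only a shared number, and over all genes the deviations of same-numbered arrays correlated at 0.566, with 2 pairs to judge by. With 1 array left out, the lone array of its group is assumed to vary like the others. The median over members then ranged from -0.12 to 0.053 for TBBD minus DMSO and from -0.10 to 0.095 for number 2 minus 1. The H2A and H4 medians for TBBD minus DMSO ranged from -0.13 to 0.013 and from -0.15 to 0.27. Between numbers the medians ranged from -0.17 to 0.10 for H1, -0.11 to 0.072 for H2A, -0.11 to 0.0064 for H2B, -0.18 to 0.095 for H3 and -0.011 to 0.23 for H4. H1-6, H2AC21 and H4C2 ranged from -0.0098 to 0.091, from -0.55 to 0.10 and from -0.12 to 0.84 for TBBD minus DMSO, and H1-3 and H2BC12 from -0.020 to 0.28 and from -0.034 to 0.66 between numbers. The 2 members called between numbers became 1 with median centring, 1 among genes with at least 2 probesets, which drops H4C9, 0 with the median over probesets, 0 with an intensity trend, 0 with treatment as a second term, and 0 to 3 with 1 array left out. The cause was not tested for the others. With the median over probesets, H2BC5 stood at 0.049 and 17 members lay higher past 1.2-fold in replicate 2. The within-number medians kept their direction in all 8 alternatives, from -0.22 to -0.14 in replicate 1 and from 0.067 to 0.13 in replicate 2. Settings for the counts past 1.2-fold, and identical probesets counted once, were chosen after seeing the data. Few arrays and few probesets per gene limit the precision.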
